A study of Mus musculus with 94 samples.

Results

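The actin cytoskeleton genes described here are 10 named genes for actins and actin regulators, Actb, Actg1, Tmsb4x, Tmsb10, Cfl1, Pfn1, Coro1a, Arpc1b, Arpc2 and Lcp1. They are a list of gene names, matched in a table of 46078 mouse genes. All 10 had reads in at least 10 of the 92 cells used, the lower limit for a gene to be counted, so no member was lost to a filter.

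The study sequenced the RNA of 94 basophils, each alone, taken from the marrow of C57BL/6 females. Basophils are rare granulocytes that carry FcεRI, the high-affinity receptor for IgE. Both gates of the sort took live cells without lineage markers or Sca1 and with FcεRI on the surface. They differed in CD34, which marks the surface of blood progenitors, with 47 cells on each side of the gate. The design names 3 mice, whose age is not given, and the labels do not tie a cell to a mouse. Each gate therefore counts as 1 sample, no test was possible, and the differences below have no replicate check. Each reaction held polyadenylated RNA of 1 cell plus ERCC spike-in RNA, amplified for 19 cycles and read as single 50 bp reads.

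Actin monomers assemble into filaments that give a cell its shape, its grip and its ability to move. Thymosins hold monomers in reserve, profilin feeds them to growing ends, the Arp2/3 complex starts branches on existing filaments, and cofilin cuts old filaments so that monomers are recycled. Coronin 1A and L-plastin (Lcp1) are hematopoietic regulators that control branched networks and bundle filaments. Granulocytes rely on this machinery to crawl, to adhere and to release granules.

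Both actins and both thymosins are close relatives, and the members that split most from their relatives were Actg1 and Tmsb10, so the starts of their coding regions are shown. Each line gives the first 90 coding bases of the principal transcript, 5′ to 3′, from GENCODE release M21, with capitals where a base differs from its relative.
Actb: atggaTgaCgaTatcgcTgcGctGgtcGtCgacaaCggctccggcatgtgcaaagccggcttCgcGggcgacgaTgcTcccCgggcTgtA
Actg1: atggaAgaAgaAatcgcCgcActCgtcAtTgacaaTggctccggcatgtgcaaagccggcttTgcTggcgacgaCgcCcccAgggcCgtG
Tmsb4x: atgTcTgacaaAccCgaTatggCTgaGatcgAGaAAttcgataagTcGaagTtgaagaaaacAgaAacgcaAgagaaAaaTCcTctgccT
Tmsb10: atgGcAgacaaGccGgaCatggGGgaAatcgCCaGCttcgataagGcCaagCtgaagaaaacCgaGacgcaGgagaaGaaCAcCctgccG
Over the whole coding region of 1125 bases, Actb and Actg1 differed at 128 bases and were 88.6% identical. Their longest identical run was 62 bases, longer than a 50-base read. Tmsb4x and Tmsb10 differed at 40 of 132 coding bases, with a longest identical run of 10 bases.

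In GRCm38, Actb lies on the minus strand of chromosome 5 (142903115 to 142906754) and Actg1 on the minus strand of chromosome 11 (120345690 to 120348542). Tmsb4x lies on the minus strand of chromosome X (167207093 to 167209315) and Tmsb10 on the minus strand of chromosome 6 (72957347 to 72958748). All 10 are annotated as protein coding.

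In each gate 46 cells were kept, with 262944 to 938322 gene reads per CD34-negative cell and 374011 to 1154738 per CD34-positive cell. The medians were 737059 and 633178. Cd34 itself had 7 CD34-negative and 1799 CD34-positive reads. All 9 basophil markers had reads, and they summed to 46134 CPM and 98225 CPM, where CPM scales a cell or gate to 1e6 gene reads. Prss34 (24143 and 62565 CPM), Mcpt8, Cpa3, Fcer1a and Ms4a2 were higher in the CD34-positive gate. Cd200r3 (3549 and 1279 CPM), Gata2 (2889 and 1919), Itga2 (171 and 52.8) and Il3ra (143 and 103) were lower there. The granule proteases Prss34, Mcpt8 and Cpa3 took 3.41% of gene reads in CD34-negative cells and 8.87% in the CD34-positive ones. Summed gene reads per ERCC read were 6.28 and 12.3, which is a log2 ratio of 0.97, so the same gene stands almost 1 log2 unit higher in the CD34-positive gate when scaled to ERCC reads. Both scalings are given for each member and each group of genes. A log2 fold is the CD34-positive over the CD34-negative gate, from reads summed over the cells of a gate, with 1 CPM added. Its 95% interval covers counting error only, since the reads carry no molecular identifiers.

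The 10 members together took a smaller share of gene reads in the CD34-positive gate. They made up 2.43% of gene reads on the CD34-negative and 1.43% on the CD34-positive side, for a log2 fold of -0.76 (-0.77 to -0.75). Scaled to ERCC reads, the order turned, at 1524 member reads per 10000 ERCC reads for CD34-negative and 1758 for CD34-positive cells, which gives 0.21 (0.20 to 0.21). Without CD34-positive cell 1 the ERCC fold was 0.32. That cell had the fewest gene reads per ERCC read of its gate, 2.93, and the highest mitochondrial share, 5.74%.

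By gene reads, 9 of the 10 members were lower in the CD34-positive gate, against 41.1% of the 12460 genes with reads in at least 10 cells and 58.6% of the 2560 genes at 100 CPM or more. Actg1 and Coro1a were lower by at least 2-fold, which 10.1% of all genes were. Among the abundant genes 16.99% were. Which members passed depended on the setting. Coro1a was at -0.92 with TMM factors, -0.96 without the proteases in the total and -0.98 in cells numbered 7 to 42, and Actg1 was at -0.70 with a pseudocount of 10 CPM, -0.88 in cells 7 to 42 and -0.94 without CD34-negative cell 12. With scran factors 5 members passed, namely Actg1 (-1.33), Coro1a (-1.27), Lcp1 (-1.09), Tmsb4x (-1.09) and Actb (-1.01). As medians over cells 4 did, among them Lcp1 at -1.13 and Tmsb4x at -1.01. No member was higher by at least 2-fold in the sums, where 21.7% of all genes and 11.25% of the abundant ones were. The median of the 10 log2 folds was -0.64, beside 0.19 for all genes and -0.21 for the abundant ones. By ERCC reads, 8 of 10 members were higher in the gate sums, against 87.6% of all genes and 81.7% of the abundant genes. As medians over cells Actg1, Tmsb4x, Coro1a and Lcp1 were lower on that scale, and the other members higher. Only Tmsb10 was higher by at least 2-fold, where 51.8% of genes were. It lay at the limit, with 1.05 by the sums, 0.92 as a mean over cells, 0.74 with a pseudocount of 10 CPM and 0.99 without CD34-positive cell 7, and it also fell short without CD34-negative cell 19. In the sums no member was lower by that much, where 2.25% of genes were. The median of the members' ERCC folds was 0.33, beside 1.04 for all genes and 0.75 for the abundant ones. Before the pseudocount the scalings differ by the same 0.97 on the log2 scale for each gene, so the place of the members' median among genes is not a separate result by ERCC reads. The sign of the summed members' fold followed the scaling. In the gate sums Actg1 and Coro1a were lower, and Tmsb10 higher, on both scales.

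**Figure D1:**
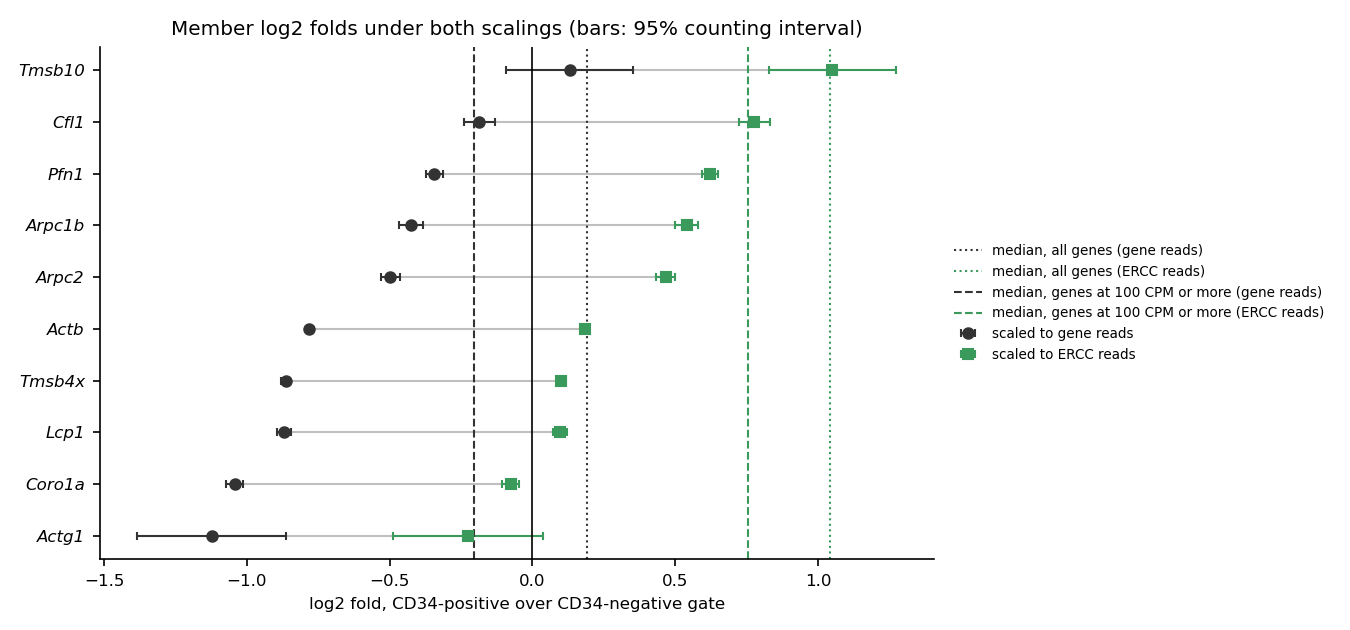
Log2 fold of each of the 10 members (x axis, CD34-positive over CD34-negative gate) scaled to gene reads (circles) and to ERCC reads (squares), with 95% counting intervals, and the medians of all genes (dotted) and of genes at 100 CPM or more (dashed). Every member moves right by almost 1 unit on the ERCC scale, and 9 circles lie left of 0 while 8 squares lie right of it.

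In single cells, the summed level of the members was 8139 CPM in the lowest CD34-negative cell, 24112 CPM at the median and 35617 CPM in the highest. In CD34-positive cells it was 4750, 12874 and 27854 CPM. The gates overlapped, but 44 of 46 CD34-positive cells lay below the CD34-negative median, and 8 lay below every CD34-negative cell. Per 10000 ERCC reads the medians were 1682 and 1702 member reads. On that scale the gates overlapped almost fully, with 24 of 46 CD34-positive cells above the CD34-negative median.

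**Figure D2:**
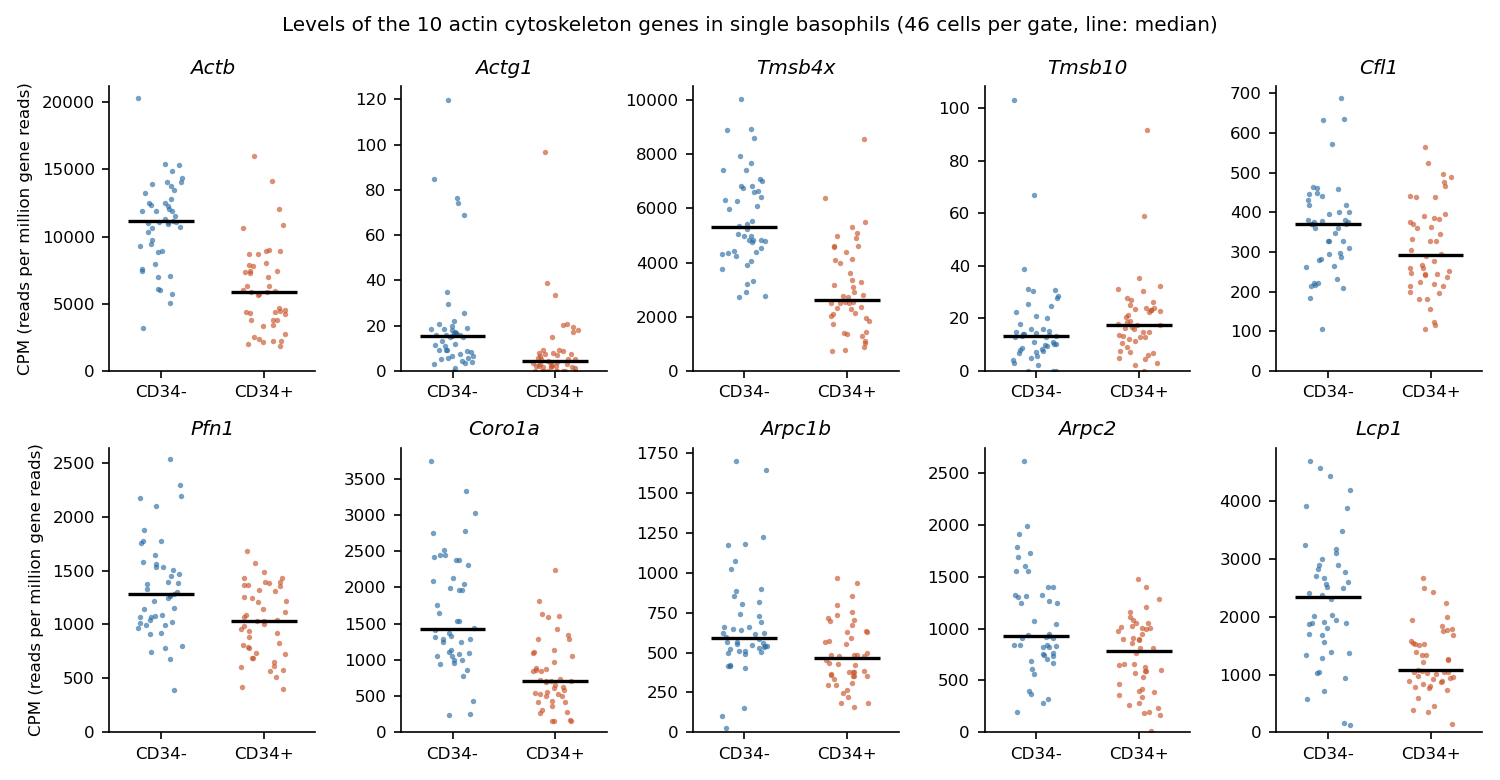
CPM of each member in single cells (y axis, linear, from 0) for 46 CD34-negative and 46 CD34-positive cells, with points for cells and a line at the median. By the ratio of medians Actg1 differs most (15.4 against 4.28 CPM), with ranges that overlap almost wholly, followed by Actb, Tmsb4x, Coro1a and Lcp1. The gates overlap widely for Cfl1, Pfn1, Arpc1b and Arpc2, and Tmsb10 alone has the higher median in CD34-positive cells (17.5 against 13.3 CPM).

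Actb, the cytoplasmic beta-actin gene, was the member with the most reads. It ranged from 3210 to 20281 CPM in CD34-negative cells, with a median of 11142 CPM. In CD34-positive cells it ranged from 1831 to 15981 CPM, with a median of 5870 CPM. Of the CD34-positive cells 43 of 46 lay below the CD34-negative median, and 8 lay below every CD34-negative cell. The gate sums of 368522 and 192532 reads gave 11019 and 6411 CPM, a log2 fold of -0.78 (-0.79 to -0.77). The ERCC fold was 0.18, and it was 0.30 without CD34-positive cell 1 and 0.12 without CD34-positive cell 46.

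Actg1, the gamma-actin gene, was counted at a small part of the Actb level. It had a median of 15.4 CPM in CD34-negative cells, from 0 to 120.0 CPM, and a median of 4.28 CPM in CD34-positive cells, from 0 to 96.6 CPM. The ranges overlapped almost wholly, but 38 of 46 CD34-positive cells were below the CD34-negative median. The sums were 699 and 272 reads, a log2 fold of -1.12 (-1.38 to -0.86). The ERCC fold was -0.23, with an interval of -0.49 to 0.04 that includes equal levels, and in cells numbered 7 to 42 it was 0.08. Single cells weighed on these folds. Without CD34-positive cell 37, which held the most Actg1 CPM of its gate, the fold by gene reads was -1.46 and the ERCC fold -0.58, and without CD34-negative cell 12 they were -0.94 and -0.06. At 200000 gene reads per cell, 40 of 46 CD34-negative cells had an Actg1 read (87.0%, exact Clopper-Pearson interval 73.7% to 95.1%) and 30 of 46 CD34-positive cells (65.2%, 49.8% to 78.6%). Without drawing to that depth these were 45 and 37 cells.

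The Actg1 count is uncertain, because much of its sequence occurs elsewhere. Of the 1903 windows of 50 bases in its principal transcript, 1079 (56.7%) also occur in a transcript of another annotated gene. Its processed pseudogenes Gm12715, Gm8399, Actg-ps1 and Gm5388 together held 3575 CD34-negative and 1312 CD34-positive reads, or 5.11 and 4.82 reads per Actg1 read. Their own log2 fold was -1.27, and Actg1 with them gave -1.26. The category for reads that align to several places held 0 reads in the deposited table, and how many reads of Actg1 were lost or placed at a copy was not tested. Actb had 14.2% of such windows, most of them in Lrrc58, with 179 windows and 3623 and 1757 reads over all 94 cells, and in its copy Gm15725, with 126 windows and 0 reads in both gates. Gm17087 shares 15 windows and had 8418 and 4182 reads. Gm4750 and Gm8464, with 30 windows each, had 691 and 335 reads and 433 and 184 reads.

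Tmsb4x, which encodes thymosin beta-4, the main protein that holds actin monomers, had the most reads per length of all members. Its CPM ranged from 2714 to 10053 in CD34-negative cells, with a median of 5295, and from 744 to 8547 in CD34-positive cells, with a median of 2634. Tmsb4x separated the gates more than any other member by one count: 23 of 46 CD34-positive cells lay below every CD34-negative cell. The sums gave 5682 and 3121 CPM, a log2 fold of -0.86 (-0.88 to -0.85). By ERCC reads the sums gave 0.10 (0.09 to 0.12), and the medians over cells gave the opposite sign, -0.11. With 1 cell left out at a time the ERCC fold lay between 0.05, without CD34-positive cell 9, and 0.21, without CD34-positive cell 1. None of its 50-base windows occurs in another annotated gene.

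Tmsb10, which encodes the related thymosin beta-10, was the member that stood apart. Its CPM ranged from 0 to 103.4 in CD34-negative cells, with a median of 13.3, and from 0 to 91.8 in CD34-positive cells, with a median of 17.5. The ranges overlapped almost wholly. It had 596 and 589 reads, a log2 fold of 0.13 with an interval of -0.09 to 0.35 that includes equal levels. With scran size factors the fold was -0.08, and without CD34-negative cell 30, the highest of its gate, it was 0.33. CD34-positive cell 1 was the highest of the other gate, and without it the fold was 0.02. By ERCC reads Tmsb10 stood higher on the CD34-positive side, at a log2 fold of 1.05 (0.83 to 1.27), close to the all-gene median of 1.04. At least 1 read came up in 39 of 46 CD34-negative cells (84.8%, 71.1% to 93.7%) and 45 of 46 CD34-positive cells (97.8%, 88.5% to 99.9%) at 200000 gene reads, and in 43 and 45 cells without drawing. Of its windows 43.5% occur in other genes. Most are in Gm9844, annotated as protein coding, with 213 windows and 82 and 105 reads over all 94 cells. The pseudogene Gm3788 shares 66 windows and had 238 and 285 reads. With the Gm3788 reads alone added, the fold of Tmsb10 by gene reads was 0.21.

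The balance between relatives within a cell does not depend on the scaling. The ratio of Tmsb10 to Tmsb4x in summed reads was 0.00314 on the CD34-negative and 0.00628 on the CD34-positive side, which is 1.00 on the log2 scale. The median over cells was 0.00223 and 0.00547, a log2 change of 1.30. The Actg1 to Actb ratio went the other way, from 0.00190 to 0.00141 in summed reads, a log2 change of -0.43, and -0.88 by the medians. Both low genes are the ones whose counts are uncertain, so these ratios carry the same limit.

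Pfn1, which encodes profilin 1, the protein that delivers actin monomers to growing filament ends, had a small difference by gene reads and a larger one of the other sign by ERCC reads. Its CPM ranged from 395 to 2533 in CD34-negative cells, with a median of 1280, and from 405 to 1681 in CD34-positive cells, with a median of 1036. The ranges overlapped, and 33 of 46 CD34-positive cells lay below the CD34-negative median. The log2 fold of the sums was -0.34 (-0.37 to -0.31). By ERCC reads it was 0.62 (0.59 to 0.65), beside a median of 0.75 for the abundant genes. On that scale 38 of 46 CD34-positive cells lay above the CD34-negative median, where 43 of 46 did for all gene reads per ERCC read. No 50-base window of Pfn1 occurs in another gene.

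Cfl1, which encodes cofilin 1, the filament-severing protein, was, by gene reads, the closest to equal in the gate sums among the members with over 1000 reads in each gate. As medians over cells it was at -0.35, further from equal than Arpc2 at -0.24 and Pfn1 at -0.31. By ERCC reads its sum was the furthest from equal among them. It ranged from 106 to 689 CPM in CD34-negative cells, with a median of 370, and from 106 to 563 CPM in CD34-positive cells, with a median of 291. The log2 fold was -0.19 (-0.24 to -0.13), near the -0.21 of the abundant genes, and 0.78 by ERCC reads, near their 0.75. By gene reads it moved with the scaling, to -0.07 with TMM factors, -0.10 without the proteases and -0.41 with scran factors. Pfn1 moved likewise, to -0.23 with TMM and -0.57 with scran factors, and Arpc1b to -0.65 with scran factors. Of the Cfl1 windows 23.0% occur in another gene. Most of these, 373 windows, are in Snx32, which overlaps the locus and shares 19.9% of the Cfl1 exon bases. Reads lost at that overlap were not tested. The pseudogene Gm6180 held 2933 and 2274 reads, and Cfl1 with these reads gave the same fold, -0.19. As shares of all member reads, Cfl1 was 1.51% and 2.25% in the CD34-negative and CD34-positive gates, and Pfn1 was 5.56% and 7.42%. In single cells, 41 of 46 CD34-positive cells had a Pfn1 share above the CD34-negative median, and 40 of 46 had a Cfl1 share above it. The ratio of Pfn1 to Cfl1 reads was 3.68 and 3.30, and in single cells it ran from 1.07 to 14.4 and from 1.03 to 7.0.

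Arpc1b and Arpc2 encode subunits of the Arp2/3 complex, which nucleates filament branches. Arpc1b ranged from 30.4 to 1700 CPM in CD34-negative cells, with a median of 591, and from 156 to 964 CPM in CD34-positive cells, with a median of 465. Its log2 fold was -0.42 (-0.47 to -0.38), and 0.54 by ERCC reads. Arpc2 ranged from 200.4 to 2613 CPM, with a median of 927, in CD34-negative cells and from 11.7 to 1475 CPM, with a median of 785, in CD34-positive cells. Its log2 fold was -0.50 (-0.53 to -0.46), and 0.47 by ERCC reads. For both subunits the gates overlapped over most of their range. Arpc1b shares 29.98% of its exon bases with the overlapping gene Pdap1 and 42.2% of its windows with other genes, and its pseudogene Gm5637 held 6200 and 4057 reads. With those reads its fold was -0.43.

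Coro1a encodes coronin 1A, a regulator of Arp2/3 branches in blood cells. It ranged from 236 to 3751 CPM in CD34-negative cells, with a median of 1422, and from 152 to 2246 CPM in CD34-positive cells, with a median of 706. Of the CD34-negative cells 12 lay above every CD34-positive cell. The gate sums of 56406 and 24587 reads gave a log2 fold of -1.04 (-1.07 to -1.01). By ERCC reads the fold was -0.08 (-0.11 to -0.05), and its sign was not stable. It was 0.05 as a mean over cells, 0.04 in cells numbered 7 to 42, and 0.04 without CD34-positive cell 1.

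Lcp1 encodes L-plastin, which bundles filaments. It ranged from 137 to 4705 CPM in CD34-negative cells, with a median of 2348, and from 145 to 2674 CPM in CD34-positive cells, with a median of 1076. Of the CD34-negative cells 16 lay above every CD34-positive cell, although the lowest cells of both gates were alike. The log2 fold was -0.87 (-0.89 to -0.84). By ERCC reads the sums gave 0.10 (0.07 to 0.12), and the medians over cells -0.16. With 1 cell left out at a time it lay between 0.04, without CD34-negative cell 45, and 0.20, without CD34-positive cell 1.

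Per length of the principal transcript, the order of levels was nearly shared by the gates. In CD34-negative cells it ran from Tmsb4x at 7399 CPM per kb through Actb at 5739, Pfn1 at 1566, Coro1a at 965, Arpc2 at 748, Lcp1 at 619, Arpc1b at 218, Cfl1 at 156 and Tmsb10 at 25.8 to Actg1 at 10.7. In CD34-positive cells it ran from Tmsb4x at 4064 and Actb at 3339 through Pfn1 at 1234 to Actg1 at 4.64 CPM per kb. Only Coro1a and Arpc2 traded places, at 469 and 529 CPM per kb. Neighbours whose middle range over cells (the lower to the upper quartile) overlapped in both gates were Tmsb4x and Actb, Coro1a and Arpc2, and Arpc1b and Cfl1, so their order is within the spread between cells. Pfn1 overlapped with Coro1a in CD34-negative cells, and Lcp1 with the gene ranked just above it in each gate. Cfl1, Arpc1b, Tmsb10 and Actg1, lowest in both gates, also had the most windows in other genes, at 23.0%, 42.2%, 43.5% and 56.7%. The part of reads lost to shared sequence in this order was not tested.

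Relative to the mean, the CD34-positive cells varied more among themselves in the summed level. In CPM the spread was nearly equal, with an SD over cells of 5288 around a mean of 24006 in CD34-negative and of 5420 around a mean of 13846 in CD34-positive cells. The coefficient of variation of the members' summed CPM was 22.03% over CD34-negative and 39.1% over CD34-positive cells. For Actb it was 29.4% and 52.2%, and for Tmsb4x 30.9% and 53.8%. For Actb the SD was 3217 and 3213 CPM, and for Tmsb4x 1740 and 1639 CPM. Of the 10 members, 4 had a lower coefficient of variation of CPM in CD34-positive cells, namely Tmsb10 (103.0% and 77.6%), Arpc1b (48.8% and 40.96%), Lcp1 (48.4% and 45.6%) and Pfn1 (33.8% and 32.3%). By ERCC reads the coefficient for the sum was 44.9% and 57.6%. On that scale it was lower in CD34-positive cells for Tmsb10, Arpc2, Pfn1, Cfl1 and Arpc1b, and higher for Actb, Actg1, Tmsb4x, Coro1a and Lcp1. CD34-negative cell 10 was the lowest of its gate for the summed CPM and for Actb, Coro1a, Arpc1b and Lcp1. It also had the fewest gene reads, 262944, and the lowest basophil marker sum, 236 CPM. CD34-positive cell 37 was the highest of its gate for the summed CPM, Actb, Actg1 and Coro1a.

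Within the CD34-positive gate, the members' share moved with other measures of the same cells. Spearman's rho of the summed member CPM was 0.66 with Prss34, -0.62 with the mitochondrial share, -0.60 with the level of the ribosomal RNA locus, -0.48 with the share of ambiguous reads and 0.43 with gene reads (46 cells each). In the CD34-negative gate the same values were -0.18, 0.06, -0.02, -0.11 and 0.12. With the proteases left out of the total, rho with Prss34 was 0.03 in CD34-negative and 0.69 in CD34-positive cells. With the member sum scaled to ERCC reads it was 0.60 and 0.56, so the gap between gates was not found there, and rho with the mitochondrial share was 0.19 and -0.61. The ERCC-scaled sum also followed gene reads per ERCC read, with rho 0.92 and 0.65. Among the 36 CD34-positive cells numbered 7 to 42, rho was 0.59 with Prss34 and -0.53 with the mitochondrial share. The CPM and the shares have the cell's total of gene reads as a common denominator, the ERCC-scaled sum has its ERCC reads, and the values are descriptions. With the S phase list the correlation was -0.09 (CD34-negative) and 0.13 (CD34-positive), and with the G2/M list -0.28 and 0.10. Between gates, the median mitochondrial share was 1.63% in CD34-negative and 2.23% in CD34-positive cells, and 36 of 46 CD34-positive cells lay above the CD34-negative median. The median ambiguous share, taken of ambiguous plus gene reads, was 17.2% and 19.1%, with 31 of 46 above. The ribosomal RNA locus had medians of 68352 and 75129 CPM, with 29 of 46 above. The part of mitochondrial share, ambiguous reads, ribosomal RNA and depth in the difference between gates was not tested.

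**Figure D3:**
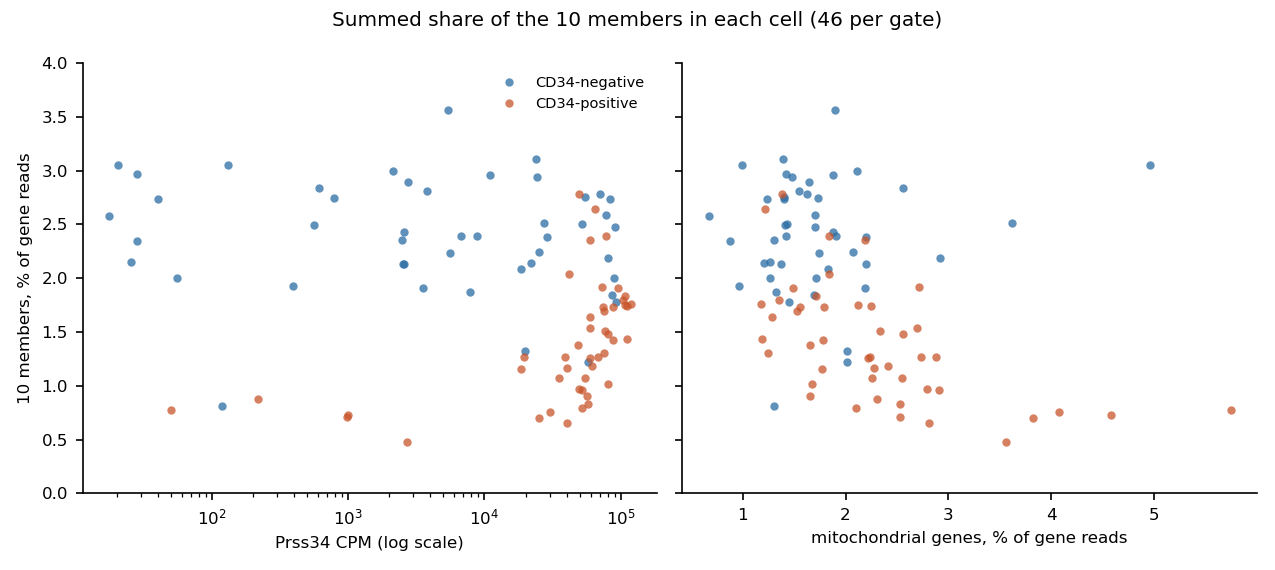
Share of gene reads taken by the 10 members (y axis, percent, from 0) against Prss34 CPM (left, log scale) and the mitochondrial share of gene reads (right, linear, percent) in 46 CD34-negative (blue) and 46 CD34-positive (orange) cells. CD34-positive cells with little Prss34 or a high mitochondrial share lie lowest (rho 0.66 and -0.62), and on this scale CD34-negative cells show no such order (rho -0.18 and 0.06).

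The members varied together more in CD34-positive than in CD34-negative cells. Over the 45 pairs of members, the median Spearman rho of CPM across cells was 0.10 in the CD34-negative gate and 0.26 in the CD34-positive gate. The medians over pairs of other abundant genes were 0.02 in both. Of the 45 pairs, 5 and 20 had a rho above 0.3. Among 3255076 pairs of other abundant genes 120266 and 152383 did. In CD34-negative cells the highest was Actb with Coro1a, at 0.59. In CD34-positive cells the highest were Tmsb4x with Pfn1 at 0.69, Actb with Lcp1 at 0.69 and Actb with Pfn1 at 0.68. Tmsb10 was the exception, with a lowest rho of -0.43 against Actb. Over cells 7 to 42 the medians were 0.15 and 0.21, so the gap between gates was smaller there. Scaled to ERCC reads they were 0.52 and 0.59, where all members share the ERCC total as denominator. These correlations rest on the cells of 1 sample per gate.

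**Figure D4:**
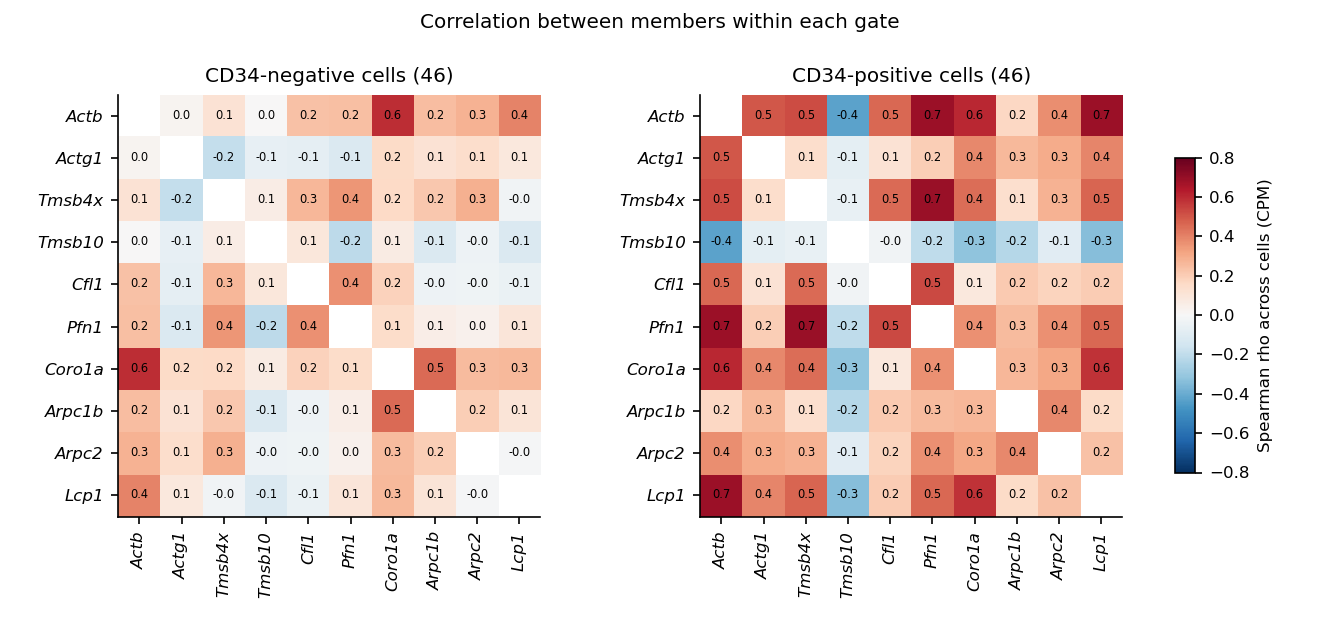
Spearman rho between members across the 46 cells of each gate, computed on CPM, with blue for negative and red for positive values and the diagonal left blank. The CD34-positive panel is redder around Actb, Pfn1, Tmsb4x, Coro1a and Lcp1 (highest rho 0.69), and its Tmsb10 row is blue (lowest rho -0.43).

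The genes most like the member sum were ranked by the smaller of their rho values in the gates, among 3517 genes with reads in at least 50% of the cells of each gate and 50 CPM in a gate. Gm17087 led, with rho 0.79 and 0.85, and shares 15 of its 50-base windows with Actb. Gm7823, at 0.47 and 0.74, is a pseudogene copy of Lcp1. Those ranks may share reads with the members. The others were Cd53 (0.51 and 0.52), which encodes a tetraspanin of leukocytes, and Tyrobp (0.48 and 0.63), which encodes the adaptor DAP12 of immune receptors. They were followed by Neurl3, Cotl1, Ppp1ca, Cd9, Pygl and Ncf1, with a smaller rho from 0.39 to 0.44. Cotl1 encodes coactosin-like protein, an actin binder of the wider list, and Ncf1 a subunit of the NADPH oxidase. Of the 72 genes of the wider list that could be ranked, 7 were in the top 100 of the 3517.

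A wider list held 89 other genes for regulators of actin, of which 86 had reads in at least 10 cells. By gene reads, 67 of the 86 were lower in the CD34-positive gate (77.9%, against 41.1% of all genes and 58.6% of those at 100 CPM or more) and 19 higher, and the median log2 fold was -0.35. Lower by at least 2-fold were 14 (16.3% of the list, against 10.1% of all genes and 16.99% of the abundant ones), and higher by at least 2-fold 4 (4.65%, against 21.7% and 11.25%). By ERCC reads 69 of 86 were higher (80.2%, against 87.6%), with a median of 0.58. The members' medians were -0.64 and 0.33.

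By role, the counts below are of genes lower by gene reads, to be read beside 41.1% of all genes and 58.6% of the abundant ones, and of genes higher by ERCC reads, beside 87.6% and 81.7%. All 7 other Arp2/3 subunits were lower by gene reads, from Arpc3 at -0.01, whose counting interval includes equal levels, to Arpc5 at -1.24. Their median was -0.33, and by ERCC reads 6 of 7 were higher, with a median of 0.63. Of 11 Arp2/3 activators and adaptors 7 were lower and 4 higher (median -0.40), and 10 were higher by ERCC reads (median 0.56). All 8 capping and severing genes were lower (median -0.59), including gelsolin, Gsn, at -1.26 and alpha-adducin, Add1, at -1.19. The interval of Capza1, at -0.15, includes equal levels. By ERCC reads 5 of these 8 were higher (median 0.37), with Gsn at -0.30 and Add1 at -0.23.

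Of 6 formin and elongation genes 5 were lower (median -0.93), among them Diaph1 at -0.97 and Vasp at -1.18. By ERCC reads 3 of the 6 were higher (median 0.03), with Diaph1 at -0.01 and Vasp at -0.21. Of 15 genes for monomer binding and filament turnover 11 were lower (median -0.65), and 11 were higher by ERCC reads (median 0.30). Crosslinkers, tropomyosins and membrane linkers were divided, with 8 of 14 lower and 6 higher (median -0.11), and 11 higher by ERCC reads (median 0.78). Of 7 myosin genes 6 were lower (median -0.33), with the nonmuscle heavy chain gene Myh9 at -1.18. By ERCC reads 6 of the 7 were higher (median 0.63), with Myh9 at -0.22. Srf and its cofactors were lower in 3 of 3 genes (median -0.80), and 2 of these were higher by ERCC reads (median 0.13). Tubulins and vimentin, a comparison list from the other filament systems, had 6 of 9 genes higher by gene reads (median 0.23) and 8 of 9 by ERCC reads (median 1.20).

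The wider list's lowest folds by gene reads, among genes with 10 CPM in a gate, were Tpm4 at -2.29, Mrtfa (also called Mkl1) at -2.19, Vcl at -2.12, Evl at -1.78 and Zyx at -1.54. Tpm4 encodes a tropomyosin that coats filaments, Vcl vinculin and Zyx zyxin, both proteins of adhesion sites, and Evl an elongation factor of the Ena/VASP family. Mrtfa encodes an actin-sensing coactivator of the transcription factor SRF. Tpm4, Mrtfa and Vcl were lower by at least 2-fold by ERCC reads as well, at -1.34, -1.23 and -1.17, and Evl and Zyx were at -0.85 and -0.58. They were 3 of 86 genes (3.49%), where 2.25% of all genes were.

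Of the 46 CD34-positive cells, 36 to 45 lay below the CD34-negative median for each of these genes. Tpm4 ranged from 0 to 1294 CPM in CD34-negative cells, with a median of 376 CPM. In CD34-positive cells it ranged from 0 to 696 CPM, with a median of 2.10 CPM, and 44 of 46 lay below the CD34-negative median. Mrtfa had medians of 280.1 and 68.1 CPM, with 45 of 46 CD34-positive cells below the CD34-negative median. For Vcl the medians were 170.3 and 21.5 CPM, with 43 of 46 cells below. Zyx had medians of 1237 and 258 CPM, and its rho with the member sum was 0.36 and 0.58.

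The highest folds were Coro7 at 1.85, Cttn at 1.28, Tpm1 at 1.08, Rhoh at 0.79 and Cyfip1 at 0.75. By ERCC reads they were at 2.81, 2.20, 2.03, 1.74 and 1.70, in that order. Coro7 encodes a coronin of the Golgi and Cttn cortactin, which stabilises Arp2/3 branches. Coro7 ranged from 0 to 890 CPM in CD34-negative cells, with a median of 48.2, and from 0 to 1111 CPM in CD34-positive cells, with a median of 399. Of the CD34-positive cells 41 of 46 lay above the CD34-negative median. Cttn had reads in 10 and 20 of 46 cells, so its fold rests on fewer cells. Within gene families the directions thus differed, with Coro1a lower and Coro7 higher, and Tpm4 lower and Tpm1 higher. By ERCC reads the 4 folds were -0.08, 2.81, -1.34 and 2.03, and the sign of Coro1a was not stable there.

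**Figure D5:**
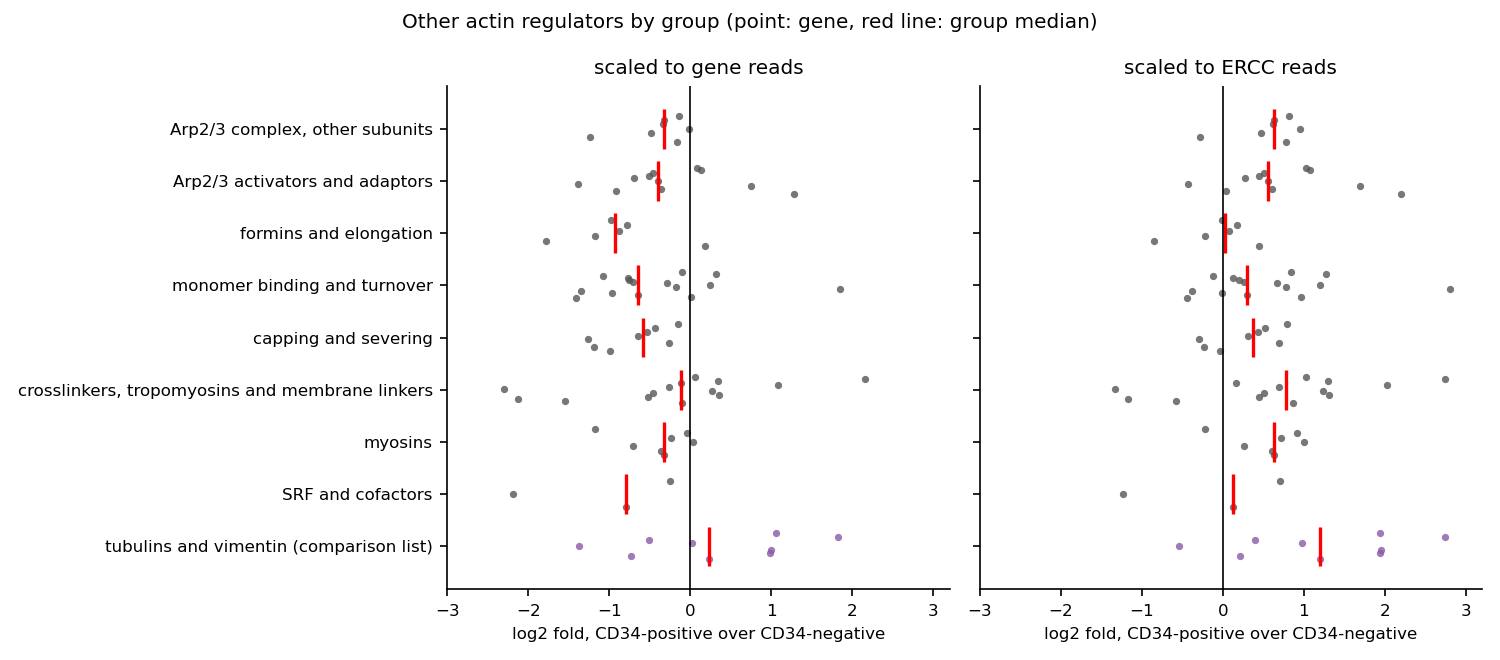
Log2 folds of most groups of the wider list by role (x axis, CD34-positive over CD34-negative gate; point: 1 gene; red line: group median), scaled to gene reads (left) and to ERCC reads (right), with tubulins and vimentin in purple. Most groups lie left of 0 on the left and right of 0 on the right, and SRF with its cofactors has the lowest gene (Mrtfa) of its row at -2.19 and -1.23.

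SRF, a transcription factor that binds the CArG box, and its cofactors drive many actin genes. Srf itself had a log2 fold of -0.25 by gene reads and 0.70 by ERCC reads, and Mrtfb (Mkl2) -0.80 and 0.13. The CArG box was searched in the window from 250 bases before to 50 after each start site. The box is its own reverse complement as a pattern, so a match reads on both strands. RefSeq promoters (GRCm38.p6) were given for 9 of the 10 members, all but Actb, which was not searched, and held the box in 1 of 13 windows. It was in 4 of 101 windows of the wider list (3.96%) and in 535 of all 32851 (1.63%). The windows with a box for genes whose values stand above are shown, 5′ to 3′ on the gene's strand, with 1 box each in capitals; the other box of Srf closes its line in lower case.
Actg1, chr11:120348556-120348605, minus strand: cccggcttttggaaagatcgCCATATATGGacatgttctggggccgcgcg
Vcl, chr14:20929151-20929200, plus strand: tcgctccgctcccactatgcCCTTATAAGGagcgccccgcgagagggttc
Srf, chr17:46556215-46556264, minus strand: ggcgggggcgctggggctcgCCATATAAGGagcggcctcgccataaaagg
The box began 90 bases before the start site in Actg1, 227 in Vcl and 82 in Srf, and Srf held another at 62 bases. The log2 folds by gene reads of these genes were -1.12, -2.12 and -0.25. The other wider-list genes with a box, Arpc4 and Myl6, were at -0.49 and -0.04, and the interval of Myl6 includes equal levels. By ERCC reads Actg1, Vcl, Srf, Arpc4 and Myl6 were at -0.23, -1.17, 0.70, 0.47 and 0.91. A match is a run of letters in a window, and binding was not measured.

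In the gate sums, markers of other blood lineages were low beside the basophil list, and some moved with the gates. Single cells reached 2388 CPM of monocyte and dendritic cell markers (CD34-negative) and 1405 CPM of eosinophil markers (CD34-positive). The 7 monocyte and dendritic cell markers summed to 511 CPM in the CD34-negative gate and 48.0 CPM in the CD34-positive gate, mostly from Ccr2. Among platelet and megakaryocyte markers, cells rich in Tmsb4x and Actb, the sums were 285 and 19.8 CPM. Of those 7 genes Pf4, Ppbp and Gp6 had 0 reads in both gates, and Itgb3 held 283.7 and 17.02 CPM. The correlation of that list with the member sum was a rho of 0.06 (CD34-negative) and 0.32 (CD34-positive). The 9 stem and progenitor markers summed to 573 and 7558 CPM, the 16 S phase genes to 1151 and 2651 CPM and the 18 G2/M genes to 516 and 2097 CPM. The stem and progenitor list had a rho with the member sum of 0.004 (CD34-negative) and -0.28 (CD34-positive). In cells 7 to 42 it was -0.11 and -0.45, and with the member sum scaled to ERCC reads 0.64 and 0.04. The neutrophil, eosinophil, B cell, T and NK cell, mast cell and erythroid lists each summed to at most 109 CPM in a gate. Their part in the members' difference was not tested.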

How the data were processed

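The authors deposited 1 table of read counts, with 1 column per cell and no normalization. Per the submitters' processing notes, the tools were GSNAP 2015-09-29 and HTSeq 0.5.3p3 and the genome build mm10. The annotation release and the strand setting are not given in the sources used here, so counts of overlapping genes are uncertain. Of all reads, 7.68% were ambiguous between genes, 33.0% lay in no gene and 22.9% were not aligned, and these stayed out of the totals. Symbols came from a name table that covered 45143 of 46078 identifiers.

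Cells were kept with 50000 gene reads, 1000 genes with a read, mitochondrial genes under 20% and ERCC reads under 50%, which left out 2 of 94. Reads were summed per gate, with exact Poisson intervals for sums and exact Clopper-Pearson intervals for detection. ERCC scaling divided by each gate's summed ERCC reads. Detection used 200000 reads drawn per cell. No doublet caller was run on these index-sorted cells. The fold calculation was tested on simulated data.

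One gene group of the wider list is counted in its totals and not reported here on its own. The members, the lists and the alternatives were chosen with earlier results of these data known. Named beside the members are the 5 highest and 5 lowest genes of the wider list with 10 CPM in a gate, and the 10 genes most like the member sum. Other genes named for a role were chosen after their values were seen. The other scalings were edgeR 4.0.16 TMM factors, scran 1.30.0 size factors and totals without the 3 proteases, 2 ribosomal RNA genes or the members. Mean and median over cells, other pseudocounts and left-out cells were also tried. Calculations used scipy 1.17.1 and pandas 2.3.3 in Python 3.11.15 and R 4.3.3. Windows of 50 bases and gene positions are from GENCODE on GRCm38.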

Additional observations from a re-analysis of the deposited data

Results flagged for a closer look

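The 2 cells left out for low depth held member reads above the limit that a count of 0 allows. In CD34-positive cell 3, with 31504 gene reads, the members took 1.69% of gene reads (exact interval 1.55% to 1.84%), where 3 reads would be 0.00952%. The kept cells of that gate ranged from 0.475% to 2.79%. In CD34-negative cell 20, with 24565 gene reads, the share was 1.33% (1.19% to 1.48%), where 3 reads would be 0.0122%, and the kept cells ranged from 0.814% to 3.56%. Both values lie inside the range of their own gate, and reads were found for 9 and 8 of the 10 members.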

How the results depend on the processing

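No paired analysis was possible because the cell numbers only name cells and the labels do not tie cells to mice. The summed members' log2 fold by gene reads (-0.76) stayed negative in every alternative, at -0.79 as a mean and -0.91 as a median over cells, -0.64 with TMM factors, -0.99 with scran factors, -0.68 without the proteases, -0.75 without ribosomal RNA genes, -0.77 without the members, -0.75 without each gene's top cell, -0.77 without CD34-negative cells 25 and 36, -0.74 in cells 7 to 42 and -0.74 without Actb. The median member fold (-0.64) was -0.68, -0.52, -0.87 and -0.56 for mean over cells, TMM, scran and no proteases, -0.60 with a pseudocount of 10 CPM and -0.61 without each gene's top cell. By ERCC reads the sum (0.21) was 0.017 as a median over cells, 0.22 without top cells, 0.23 without cells 25 and 36, 0.28 in cells 7 to 42 and 0.22 without Actb, and the median (0.33) was 0.29 as a mean over cells, 0.36 without top cells, 0.36 without cells 25 and 36 and 0.39 in cells 7 to 42. Without single cells, one at a time, the values were -0.79 to -0.75 for the sum, -0.67 to -0.62 for the median, 0.16 to 0.32 and 0.28 to 0.44 by ERCC reads, and 8 to 9 members higher by ERCC reads. The share of the wider list lower in the CD34-positive gate was 77.9% by gene reads and 19.8% by ERCC reads. The median rho between members in CD34-negative cells was 0.52 by ERCC reads, 0.094 without proteases and 0.15 in cells 7 to 42, and in CD34-positive cells 0.59, 0.32 and 0.21.

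Signs turned for Tmsb10 with scran (-0.083), and by ERCC reads for Coro1a as a mean over cells (0.050), in cells 7 to 42 (0.040) and without CD34-positive cell 1 (0.039, with -0.14 to 0.039 over all cells left out singly), Tmsb4x (-0.11) and Lcp1 (-0.16) as medians over cells, and Actg1 in cells 7 to 42 (0.079). The median fold of all genes by gene reads, 0.19, was -0.21 among genes at 100 CPM or more. Of 260 alternative values for single members, 179 stayed within the counting interval, 75 moved past it and 6 changed sign. A stricter cell filter kept the same 92 cells. Alternatives for copies, Actb, the low members and cell numbers in correlations were chosen after seeing the data. Actg1 and Tmsb10 had under 1000 reads a gate, and the parts of depth and of shared sequence in these low counts were not tested. The causes were not tested.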

Other observations

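Other actin genes were near absent. Acta2, the smooth muscle alpha-actin gene, had 69 reads in the CD34-negative and 5 reads in the CD34-positive gate, Actg2 had 3 and 34, Acta1 had 15 and 10, and Actc1 had 13 and 2. Actn1, the alpha-actinin 1 gene, had 11 and 148 reads, or 0.33 and 4.93 CPM, below the level set for naming.

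Among monomer and turnover genes, the cofilin phosphatase gene Ssh2 was at 822 CPM in the CD34-negative and 309 CPM in the CD34-positive gate, a log2 fold of -1.41 by gene reads and -0.44 by ERCC reads. Its relative Ssh1 was at 75.9 and 76.2 CPM, a fold of 0.005 by gene reads and 0.96 by ERCC reads. The kinase genes Limk1 and Limk2, whose products phosphorylate cofilin, had folds of -0.96 and -0.65 by gene reads and -0.01 and 0.30 by ERCC reads. Tubb5, a beta-tubulin gene, was at 298 and 588 CPM, a fold of 0.98 by gene reads and 1.94 by ERCC reads. Tuba1b was at 13.2 and 48.9 CPM, with folds of 1.82 and 2.75. These genes were picked after their values were seen.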
